A study of Mus musculus with 6 samples.

Results

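The nuclear receptors classed as THR-like transcription factors, the class named for the thyroid hormone receptors, were 5 genes: Thra, Thrb, Rarb, Pparg and Vdr. They are the rows with that family label in the deposited tables, 5 of 2031 genes, of which 228 carry any transcription factor family. Poly-A RNA was sequenced from J1 mouse embryonic stem cells (strain 129S4/SvJae) that a hanging-drop protocol of 3 days had turned into embryoid bodies on the way to cardiomyocytes. All 6 libraries come from that line, 3 (NC) from culture in a conventional incubator and 3 (MF) from culture under a static magnetic field; neither the field strength nor the time of exposure or collection is given in the sources used here. Embryoid bodies are mixtures of cell types. The libraries are described as biological triplicates without saying whether they were separate cultures, so p-values measure the spread between these libraries, which may be partly technical. The comparison asked which genes differed between the 2 incubators.

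Nuclear receptors are transcription factors that are switched by small fat-soluble molecules. A zinc finger domain binds short DNA half-sites related to AGGTCA, and a second domain binds the ligand and exchanges corepressors for coactivators. The receptors described here bind DNA mostly as heterodimers with the retinoid X receptors. Thra and Thrb encode the thyroid hormone receptors alpha and beta, Rarb encodes retinoic acid receptor beta, Pparg encodes a fatty acid sensor that drives fat cell formation, and Vdr encodes the vitamin D receptor. In the embryo, retinoic acid patterns the heart tube along its length, and thyroid hormone later shifts heart muscle towards its adult myosin.

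Promoter letters are shown because Rarb is a textbook target of its own ligand. A further reason was that all members were higher in MF, as were most deposited genes. RefSeq windows (build GRCm38.p6, 300 bases, of which 50 lie after the start site) were found for Pparg (3), Thrb (2), Rarb (1) and Vdr (1), 7 windows in all. The Rarb window lies at the start of the shorter transcripts, inside the gene. Its upstream part, minus strand, chr14:16575477-16575726, is given first, with the half-sites GGTTCA and AGTTCA, 5 bases apart, in capitals. The stretches of Pparg (plus strand, chr6:115361099-115361138 and chr6:115362323-115362348) and Thrb (plus strand, chr14:17660759-17660798) have the half-site AGGTCA in capitals.
Rarb: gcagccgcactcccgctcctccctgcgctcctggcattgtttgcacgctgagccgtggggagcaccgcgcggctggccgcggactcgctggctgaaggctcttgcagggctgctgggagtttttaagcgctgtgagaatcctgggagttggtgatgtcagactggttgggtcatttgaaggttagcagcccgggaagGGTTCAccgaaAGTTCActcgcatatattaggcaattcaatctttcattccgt
Pparg, first window: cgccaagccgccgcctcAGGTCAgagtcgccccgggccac
Pparg, second window: atataagggacgcgaggAGGTCAaga
Thrb: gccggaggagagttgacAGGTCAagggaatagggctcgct
The Rarb repeat runs from base -53 to base -37, counted from the start site. That exact pattern, searched on both strands and chosen after the sequence had been seen, occurs in 2 of 32851 windows (0.00609%). AGGTCA, on either strand, is in 16.3% of all windows and in 3 of the 7 member windows. Direct repeats of AGGTCA with spacers of 1 to 5 bases, each of which would also hold AGGTCA, were found in none of the 7 and in between 0.00609% and 0.0396% of all windows. These matches describe letters and not binding. In GENCODE M21 no transcript starts within 50 bases of the start site of the first Pparg window or of the printed Thrb window.

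The library totals behind the FPKM values (counts per kilobase of gene, scaled to the library total) lay between 14929232 and 19176383. The authors had selected the deposited genes for a difference between MF and NC: in the authors' deposited table no adjusted p exceeds 0.0499 and no log2 fold change is smaller in size than 1.001. Genes that the authors did not select were not analysed here. The presence of the 5 members is therefore itself a result of that selection. Among the 1026 tested genes called higher in MF, 83.2% were lower in MF replicate 2 than in the other MF libraries.

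All 5 receptors were higher in MF than in NC, by between 2.48-fold and 3.79-fold as ratios of mean FPKM, and for none of them did the groups overlap. Among all 2031 deposited genes, 58.4% were higher in MF without overlap. Of the members, 4 reached the mean of 0.5 FPKM required for testing, and all 4 rose (edgeR, quasi-likelihood, adjusted by Benjamini-Hochberg over 1651 tested genes). Of those tested genes 97.5% were called and 62.1% were called higher, so 4 calls of 4 lie near what any deposited genes gave. Thrb, at a mean of 0.126 FPKM, fell under the filter. In such bulk libraries, more cells that express a gene and more RNA per cell cannot be told apart. Against the median of the genes called higher (log2 fold change 1.63, quartiles 1.28 and 2.35), Vdr at 1.83 and Pparg at 1.72 lay above it and Rarb at 1.51 and Thra at 1.31 below it.

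**Figure D1:**
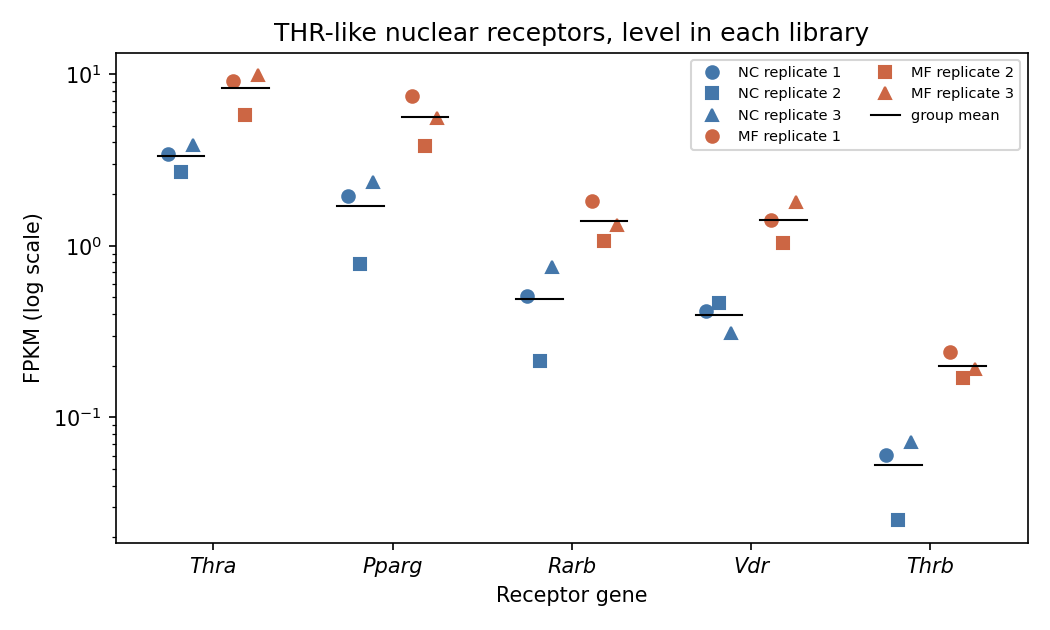
FPKM of the 5 receptor genes on a log axis, with a point for each library (blue NC, orange MF, shape for the replicate number) and a line at each group mean. Every MF point lies above every NC point of the same gene, from Thra at 5.80 to 9.84 FPKM in MF down to Thrb at 0.169 to 0.239 FPKM.

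Thyroid hormone receptor alpha was the most abundant member. Thra (mm10 chromosome 11, 98740638 to 98769006, plus strand, 17 exon blocks) stood at 3.43, 2.68 and 3.86 FPKM in NC replicates 1 to 3 and at 9.10, 5.80 and 9.84 FPKM in MF replicates 1 to 3. The replicate 2 library was the lowest of each group, and the lowest MF value still exceeded the highest NC value. The mean level was 3.32 ± 0.600 FPKM in NC and 8.25 ± 2.15 FPKM in MF (SD, n = 3), and Thra rose 2.48-fold (log2 value 1.31, SE 0.40; edgeR adjusted p = 0.0240). In the authors' deposited table its log2 fold change is 1.31 with an adjusted p of 0.000575. Exons of Thra overlap those of Nr1d1, a clock repressor on the opposite strand, over 263 bases or 5.70% of the Thra exons. Strand use in counting is not given, so reads from that stretch cannot be assigned to one gene.

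Thyroid hormone receptor beta was nearly absent by comparison. Thrb (chromosome 14, 17660261 to 18038090, plus strand, 14 exon blocks) had 7, 3 and 8 counts in the NC libraries and 34, 21 and 23 counts in the MF libraries, which is 0.0604, 0.0252 and 0.0724 FPKM against 0.239, 0.169 and 0.191 FPKM. The NC library with 3 counts sits at the level that a count of 0 would still allow. Summed over libraries, 18 counts in NC and 78 in MF gave a ratio of 3.87 per library count, with an exact 95% interval of 2.30 to 6.87 that covers counting error alone. With no filter on low values, edgeR gave Thrb a log2 fold change of 1.91 (SE 0.74, adjusted p = 0.0321), where 62.8% of the genes tested in that way were called higher. The authors' deposited table lists 1.93 with an adjusted p of 0.0374. The FPKM ratio of Thra to Thrb lay between 53.3 and 106 in NC and between 34.4 and 51.6 in MF, with no overlap, although the NC end rests on those few Thrb counts. Of all ratios between members, only that of Rarb to Thrb was also without overlap, and it rests on the same Thrb counts.

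Retinoic acid receptor beta, whose promoter repeat is printed above, was low in NC. Rarb (chromosome 14, 16430839 to 16819156, minus strand, 11 exon blocks) stood at 0.510, 0.212 and 0.751 FPKM in NC replicates 1 to 3 and at 1.82, 1.06 and 1.32 FPKM in MF replicates 1 to 3. Replicate 2 was lowest in both groups, and the NC libraries spread more, relative to their mean, than the MF libraries. The mean level was 0.491 ± 0.270 FPKM in NC and 1.40 ± 0.387 FPKM in MF (SD, n = 3), and Rarb rose 2.85-fold (log2 value 1.51, SE 0.60; edgeR adjusted p = 0.0354), the weakest call of the 4. The authors' deposited table gives 1.52 and an adjusted p of 0.0211. Of the Rarb exons 34.1%, 1793 bases, overlap exons of Top2b, a topoisomerase gene on the opposite strand, and 4.31% overlap the antisense gene Gm48162, so the Rarb counts are uncertain without strand. Rarb and Thrb are neighbours on chromosome 14, 841104 bases apart with no protein-coding gene annotated between them.

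Pparg, the fatty acid sensor, was the second most abundant member. Pparg (chromosome 6, 115360951 to 115490399, plus strand, 13 exon blocks) stood at 1.95, 0.778 and 2.36 FPKM in NC replicates 1 to 3 and at 7.49, 3.81 and 5.51 FPKM in MF replicates 1 to 3. NC replicate 2 lay far under the other NC libraries, and MF replicate 2, the lowest of its group, lay above all of NC. The mean level was 1.69 ± 0.820 FPKM in NC and 5.60 ± 1.84 FPKM in MF (SD, n = 3), and Pparg rose 3.31-fold (log2 value 1.72, SE 0.54; edgeR adjusted p = 0.0248). The authors' deposited table gives 1.73 and an adjusted p of 0.00345. No exon of Pparg overlaps an exon of another annotated gene.

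The vitamin D receptor showed another order among the control libraries. Vdr (chromosome 15, 97854425 to 97910630, minus strand, 14 exon blocks) stood at 0.418, 0.461 and 0.308 FPKM in NC replicates 1 to 3 and at 1.40, 1.03 and 1.79 FPKM in MF replicates 1 to 3. NC replicate 2 was the highest NC library here and NC replicate 3 the lowest, the reverse of the other 4 members, while MF replicate 2 was again the lowest of MF. The exact 95% counting intervals of NC replicate 2 (0.333 to 0.624 FPKM) and NC replicate 3 (0.201 to 0.452 FPKM) overlap, so this order is not resolved at the depth of 42 and 26 counts. The mean level was 0.396 ± 0.0790 FPKM in NC and 1.41 ± 0.381 FPKM in MF (SD, n = 3), and Vdr rose 3.55-fold (log2 value 1.83, SE 0.52; edgeR adjusted p = 0.0224), the largest fold of the 4 tested members. The authors' deposited table gives 1.83 and an adjusted p of 0.000124. No other annotated gene overlaps Vdr.

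Per kilobase, Thra was highest, then Pparg, then Rarb and Vdr, and Thrb was lowest, in both groups. Thra exceeded Pparg in 6 of 6 libraries, by 1.22 to 3.44 times, although across the MF libraries the 2 ranges overlap. Pparg exceeded Rarb in 6 of 6 libraries, by 3.14 to 4.18 times. Rarb and Vdr did not differ beyond their spread, as Rarb was the higher of the pair in 4 of 6 libraries and their ratio ran from 0.460 to 2.44. Vdr exceeded Thrb in 6 of 6 libraries. Thra took between 52.5% and 64.5% of the summed FPKM of the 5 genes in NC and between 45.4% and 52.7% in MF, which overlap.

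Within a library the members differed in how closely they kept step. Pparg and Rarb kept the narrowest ratio of neighbours in level, with a Pearson correlation of log2(FPKM + 0.1) of 0.994 over the 6 libraries, while Rarb and Vdr had the widest, with a correlation of 0.748. NC replicate 2 stood 1.12 and 1.21 log2 units under the NC mean for Pparg and Rarb. For Thrb the same library stood 1.07 below, for Thra 0.31 below, and for Vdr it stood 0.22 above. The tested genes called higher in MF had a median 0.56 below the NC mean in that library. In MF replicate 2 the members stood between 0.80 (Thra) and 1.68 (Thrb) log2 units above the NC mean, against a median of 1.04 for the genes called higher. It was the lowest MF library for 5 of 5 members.

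**Figure D2:**
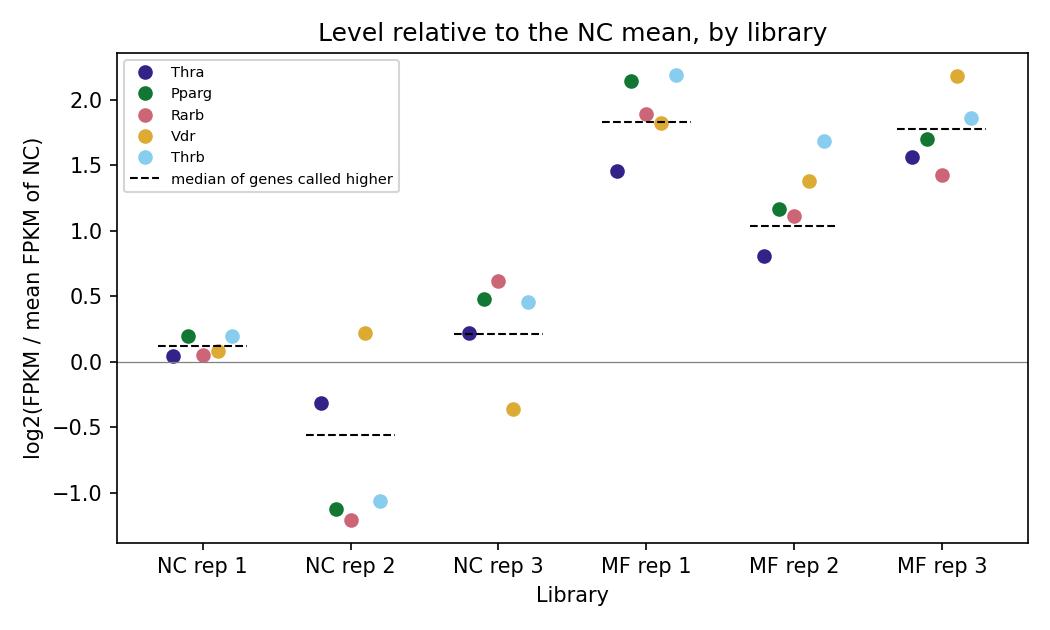
Log2 of FPKM over the mean FPKM of NC, for each library on the horizontal axis, with a coloured point for each receptor and a dashed line at the median of the 1026 tested genes called higher. In NC replicate 2 the Vdr point lies at 0.22 while Pparg, Rarb and Thrb lie between -1.21 and -1.07, and in MF all points lie between 0.80 and 2.19.

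The calls depended on single libraries, on the scaling and on the number of tests. All 4 tested members passed without MF replicate 2 (adjusted p from 0.00750 to 0.0285; 60.3% of all tested genes called higher) and without both replicate 2 libraries (0.000309 to 0.00912; 62.2%). None passed without NC replicate 1 (0.0518 to 0.0841; 25.6%), MF replicate 1 (0.0538 to 0.114; 21.6%) or MF replicate 3 (0.0875 to 0.0989; 0.727%), with 3 of 4 at an unadjusted p under 0.05 in each of these edgeR fits. Rarb alone lost its call without NC replicate 2 (0.0742; 35.7%) and Vdr alone without NC replicate 3 (0.0503; 38.1%). All 4 passed with the replicate number as a block (0.00428 to 0.0154; 62.4%) and with DESeq2 (63.7%). In either direction the block called 1620 of the 1651 tested genes and DESeq2 called all 1651. Passing in these 2 fits therefore sets no member apart. The pairs behind the block were inferred from the values of these same libraries.

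The authors had made 19069 tests, a number recovered from their deposited p-values. Adjusted over that number, edgeR called 0 of the 4 members (0.258 to 0.408, all 4 at an unadjusted p under 0.05) and 0.0% of all tested genes. DESeq2 called Vdr (0.0144) and Thra (0.0415) there, where it called 29.0% of the genes higher, and a blocked edgeR fit called Thra alone (0.0495), with 22.8% called higher. The log2 fold change stayed positive for all 4 members under every alternative run.

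Scaling the libraries on the deposited genes themselves, in place of the library totals, moved the values of all 4 members downwards. Such factors take most genes as unchanged, while all deposited genes had been selected for a difference, 63.2% of them higher in MF. The median log2 fold change of all tested genes was 1.22 with library totals, 0.52 with TMM and 0.16 with median-of-ratios factors, and the share of calls that were higher in MF was 63.7%, 33.1% and 23.8%. No member passed with TMM (adjusted p 0.0755 to 0.176, 2 of 4 at an unadjusted p under 0.05; 17.6% of all tested genes called higher) or with median-of-ratios factors (0.199 to 0.493, 0 of 4; 9.57%). With a filter at a mean of 2 FPKM only Thra and Pparg were tested, and both passed, as did 59.1% of the tested genes in that direction. Relative to the median of all tested genes, Vdr stood 0.61, 0.56 and 0.53 log2 units higher under the 3 scalings, Pparg 0.51, 0.53 and 0.54, Rarb 0.29, 0.33 and 0.35, and Thra 0.09, 0.08 and 0.07.

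**Figure D3:**
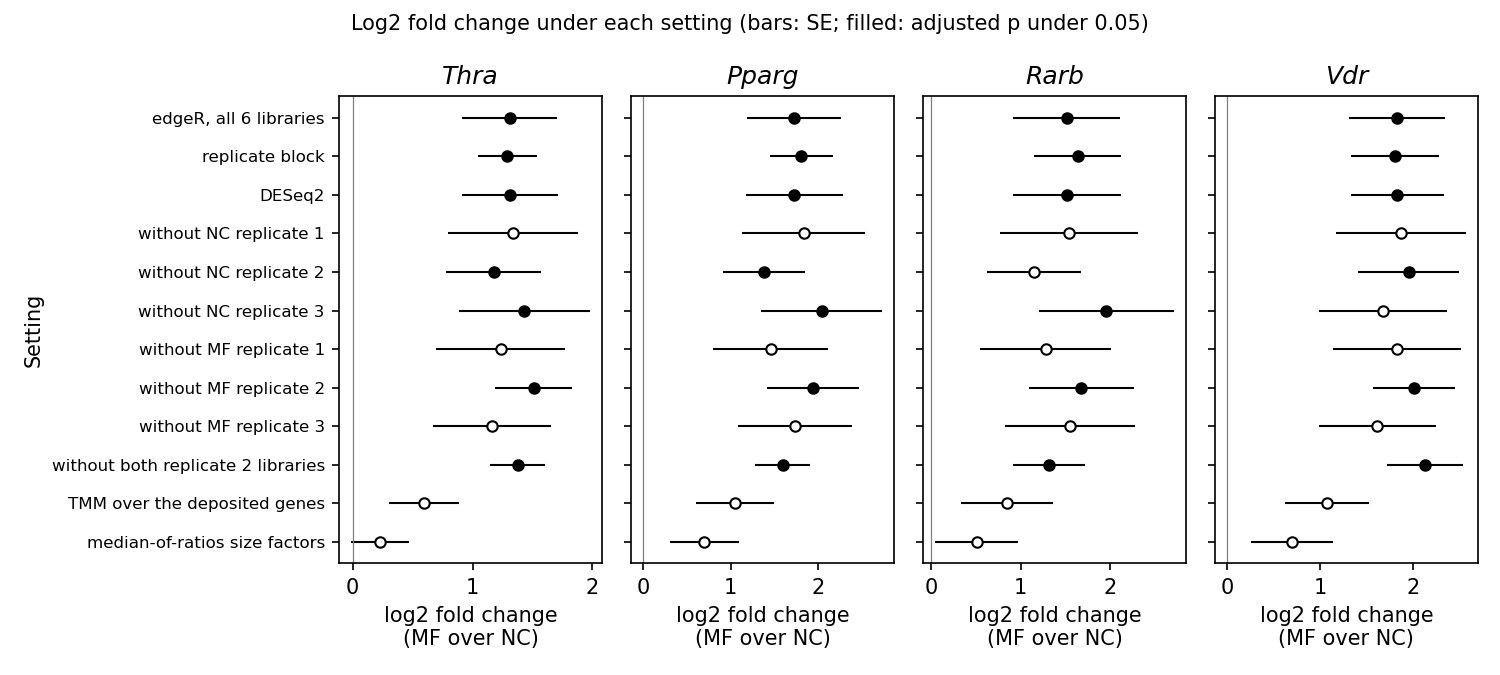
Log2 fold change (MF over NC, with its SE) of the 4 tested receptors under 12 settings, filled where the adjusted p was under 0.05. All points lie above 0, and the smallest, 0.23 for Thra with median-of-ratios factors, has an SE that reaches 0.

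Genes that make, carry and answer to retinoic acid, the ligand of Rarb, were taken from lists of which only a part is deposited. Over all 14 lists of pathway genes, 38 of 55 tested genes were called higher and 15 lower, beside 62.1% of all tested genes called higher. The split turned with the scaling, to 8 higher and 14 lower with median-of-ratios factors and 18 and 15 with TMM, and without MF replicate 3 only 3 genes were called, all higher. Of 33 listed genes of retinoic acid synthesis, transport and breakdown, 4 are deposited, and all 3 tested ones rose (median log2 fold change 1.68, against 1.22 for all tested genes); with median-of-ratios factors none of the 3 was called, and with TMM 1 was. Aldh1a2, the main enzyme of embryonic retinoic acid synthesis, stood at 0.564, 0.329 and 0.266 FPKM in NC replicates 1 to 3 and at 2.12, 1.05 and 2.25 FPKM in MF replicates 1 to 3. It rose by a log2 fold change of 2.22 (SE 0.64), and the retinol uptake receptor Stra6 rose by 1.68 (SE 0.48). Adh4, an alcohol dehydrogenase that can oxidise retinol, was under the filter and went the other way, with 3, 25 and 9 counts in the NC libraries and 0 counts in each MF library. None of the Cyp26 enzymes that break retinoic acid down is among the deposited genes.

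Of 34 listed retinoic acid responsive genes, 21 are deposited and 19 were tested; 15 rose and 3 fell, with a median log2 fold change of 1.57. With median-of-ratios factors 3 were higher and 3 lower, with TMM 5 and 3, and without MF replicate 3 none of the 19 was called. Among those with the highest mean FPKM, the transglutaminase Tgm2 (1.05, SE 0.38) and the zinc finger gene Zfp703 (1.35, SE 0.45) rose; with median-of-ratios factors they stood at 0.01 and 0.35, and neither passed. Stra8, a retinoic acid induced gene of meiotic entry, fell by 4.48 (SE 0.95), from 17.5, 57.3 and 9.06 FPKM in the NC libraries to 0.260, 2.74 and 0.750 FPKM in the MF libraries. Rec8, a meiotic cohesin, and Gbx2, a hindbrain boundary factor, also fell, and the groups overlapped for Gbx2, where NC replicate 2 stood at 1.31 FPKM. With the replicate number as a block Gbx2 did not pass (edgeR adjusted p = 0.107). The 15 genes that rose include 4 Hox genes and the Hox partners Meis1 and Meis2.

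**Figure D4:**
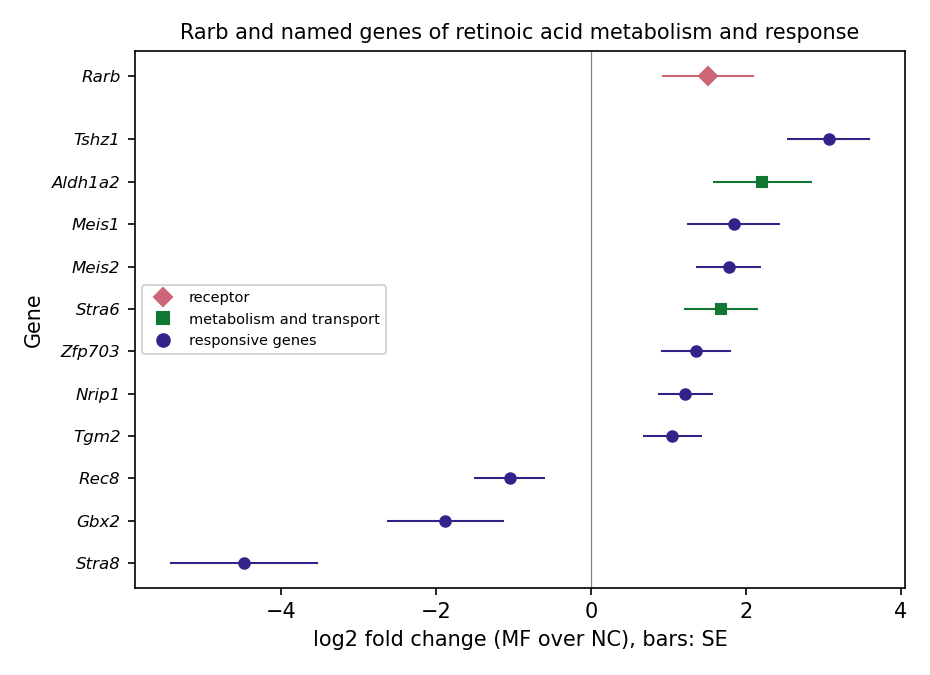
Log2 fold change (MF over NC, with its SE) of Rarb, in red, and of 11 of the tested genes of retinoic acid metabolism (squares) and response (circles), all past an adjusted p of 0.05. Stra8 lies furthest to the left at -4.48 and Tshz1 furthest to the right at 3.07.

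The pathways of the other receptors had fewer deposited genes. Of 18 listed genes of thyroid hormone transport, conversion and response, 5 are deposited and all 3 tested ones rose (median 3.13). Among all tested genes 62.1% were called higher. Dio3, the enzyme that inactivates thyroid hormone, rose by 2.42 (SE 0.63), from 2.33, 1.01 and 4.59 FPKM to 21.8, 7.68 and 12.9 FPKM. Dio2, the activating enzyme, was under the filter and stood at 0.0330, 0 and 0.0576 FPKM in NC and 0.215, 0.154 and 0.571 FPKM in MF, and Pln, which restrains calcium uptake in heart muscle, was also under the filter. The heart muscle myosins Myh6, which thyroid hormone induces, and Myh7, which it represses, rose by 4.02 and 3.13, with overlapping groups for Myh7. With median-of-ratios factors, and also without MF replicate 3, only Myh6 of these 3 tested genes was called, while TMM called all 3. Of 30 listed fatty acid genes and PPAR targets, 3 are deposited, of which the fatty acid transporter Cd36 and the lipase Lpl rose by 4.28 and 1.15 and the lipid droplet gene Cidea fell by 1.90. The Cd36 value rests on MF replicate 2, at 9.10 FPKM against 0.741 and 1.42 FPKM, and was 2.48 without it. With median-of-ratios factors only Cidea was called and Lpl stood at 0.05, while without MF replicate 3 none of the 3 was called. Of 11 vitamin D genes only Spp1, the matrix protein osteopontin, is deposited, and it fell by 1.73. Spp1 was not called with median-of-ratios factors or without MF replicate 3. Of 35 nuclear receptor coregulators 3 are deposited. The corepressor Nrip1 rose by 1.22 and Zfpm2, a cofactor of GATA factors and of Nr2f2 in the heart, by 2.72. Bcl11a was under the filter. Neither tested coregulator was called with median-of-ratios factors, where Nrip1 stood at 0.18, or without MF replicate 3, and TMM called only Zfpm2.

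Markers of several cell types moved with the receptors, and their part in the receptor values was not tested. The summed FPKM of the 9 deposited cardiomyocyte markers, of 11 listed, ran from 32.9 to 70.6 in NC and from 105 to 640 in MF. For fibroblast and mesenchyme markers (9 of 9) it ran from 89.1 to 246 in NC and from 223 to 1154 in MF, so the groups overlap. For pluripotent cell markers (3 of 9) it ran from 172 to 428 in NC and from 16.2 to 105 in MF, and for germ cell markers (5 of 7) from 39.9 to 169 and from 3.31 to 15.5. In MF replicate 2 the cardiomyocyte and mesenchyme sums were the lowest of MF and the pluripotent and germ cell sums the highest, and all 5 receptors were at their lowest of MF there. NC replicate 2 likewise had the lowest cardiomyocyte and mesenchyme sums of NC and the highest pluripotent and germ cell sums. There 4 of the 5 receptors were at their lowest of NC, while Vdr was at its highest. Myl7 weighed heavily in the cardiomyocyte sum, at 288, 11.7 and 129 FPKM in MF replicates 1 to 3. Myh6 and Myh7 of that list were also lowest of MF in MF replicate 2. Outside that list, Myl4 was lowest there too. Myl2 (8.58, 15.6 and 1.70 FPKM) and Pln (0.0756, 1.70 and 0.0891 FPKM) were instead highest in MF replicate 2. One mesenchyme marker was at 0 in a library, and no deposited marker of the other lists was.

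The genes most like the 3 most abundant members were named by Pearson correlation of log2(FPKM + 0.1) over the 6 libraries, among 1513 other tested genes. For Thra they were Lum (0.999), Man1a (0.998) and Twist1 (0.998), for Pparg Six2 (0.999), Arhgdib (0.998) and Clip2 (0.996), and for Rarb Maml3 (0.996), Six2 (0.993) and Ccdc8 (0.993). Such values are common here, where all genes share the same libraries and had been selected for a group difference: 760 genes exceeded 0.9 with Thra, 612 with Pparg, 510 with Rarb, 675 with Thrb and 338 with Vdr.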

How the data were processed

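Poly-A RNA of 6 libraries (3 NC, 3 MF) was sequenced, and the submitters' processing notes name HISAT2 2.0.5, featureCounts and mm10 but no settings. Per the file headers, a deposited table lists raw count, FPKM and normalized signal per gene and library, beside the authors' log2 ratio and its p-value, raw and adjusted. The deposited signal equalled the count divided by a size factor proportional to the library total, and the library totals were recovered from count, FPKM and gene length. Whole-library totals served as library sizes. The 48 rows without a gene name held at most 0.0390% of a library and were left out.

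After a filter at a mean of 0.5 FPKM over all 6 libraries, 1651 named genes were tested with edgeR 4.0.16 (quasi-likelihood, two-sided, group as the only term, R 4.3.3) and Benjamini-Hochberg adjustment at 0.05 over those genes. SE is the log2 fold change divided by the root of the F statistic. These genes had been selected by the authors on the same libraries, so errors over the whole genome are not controlled. The 19069 tests of the authors were recovered from the top 30 adjusted p-values. Adjusted p-values over that number use ranks among deposited genes and are upper bounds, and their counts of calls lower bounds. Alternatives were DESeq2 1.42.0, limma 3.58.1 on log2(FPKM + 1) and log2(FPKM + 0.1), other filters and scalings, a replicate block and left-out libraries. Only the main edgeR fit was tested on simulated counts, in which most genes were left unchanged, unlike the deposited genes.

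The members, the 14 pathway lists and the 11 marker lists were chosen with earlier results of these data known. Every member is named, and of each list up to 4 tested genes with the highest mean FPKM; some listed genes are not reported here. Rec8, Gbx2, Adh4, Dio2, Pln, Myl2, Bcl11a, Tshz1, Pecam1, Meis1 and Meis2 were named after their values were seen. Gene coordinates and lengths of the 5 members equalled those of GENCODE M21 (GRCm38), from which exon overlaps were computed. Promoter windows come from RefSeq (GRCm38.p6).

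Replicate numbers are shared between groups. Same-numbered libraries deviated together from their group means (correlation 0.36, 0.56 and 0.29) and were taken as pairs on these values, since no label ties them, although NC replicate 3 was closer to MF replicate 1 (0.53). All pairs of libraries differed beyond sampling noise (chi-square per degree of freedom at least 23.5).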

Additional observations from a re-analysis of the deposited data

How the results depend on the processing

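The counts of calls are set beside the reported 1610 of all tested genes, 4 receptors and 53 of 55 tested pathway genes. With median-of-ratios factors they were 665, 0 and 22, and with TMM 880, 0 and 33. A filter at a mean of 2 FPKM gave 980 genes and 2 receptors, as Rarb and Vdr were then not tested. Over the 19069 recovered tests edgeR called 0, 0 and 0, the replicate block 504, 1 and 29, and DESeq2 598, 2 and 35; the last pair was added after the data had been seen, as was leaving out both replicate 2 libraries. Leaving out 1 library gave between 12 and 1578 genes, 0 and 4 receptors, and 3 and 53 pathway genes, lowest without MF replicate 3. With the replicate number as a block over the tested genes, the counts were 1620, 4 and 52, and no receptor changed its call; of the other named genes, Myl7 and Gbx2 lost theirs. Bhlhe41, a clock gene, reversed with median-of-ratios factors (-0.11). Lowest and highest log2 fold changes over all alternatives were 0.23 and 1.51 for Thra, 0.70 and 2.04 for Pparg, 0.51 and 1.95 for Rarb, and 0.70 and 2.13 for Vdr. Depth limits Thrb, at 3 to 8 counts in NC. TMM and median-of-ratios factors rest on genes selected for a difference, so their lost calls cannot decide which scaling is right. The cause of the shifts with scaling was not tested.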

Other observations

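Nr2f2 and Esrrg, receptors filed under other families and chosen here after their values were seen, were also higher in MF without overlap. So were 58.4% of all deposited genes. Other deposited receptors were not counted. Nr2f2, an orphan receptor of atrial and venous cells, stood between 0.842 and 1.44 FPKM in NC and between 4.02 and 6.01 FPKM in MF, and rose 4.37-fold (edgeR adjusted p = 0.0111). Esrrg, an oestrogen-related receptor of oxidative muscle, was under the filter for testing and stood at 0.0412, 0.0400 and 0.0755 FPKM in NC and 1.04, 0.422 and 0.752 FPKM in MF.

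Lists around other nuclear receptors had these counts. They stand beside 62.1% of all tested genes called higher. Of 11 atrial chamber genes 5 are deposited and all 5 rose (2 with median-of-ratios factors). Among these Myl7, an atrial myosin light chain, had overlapping groups, with MF replicate 2 at 11.7 FPKM and NC replicates 2 and 3 at 17.6 and 24.3 FPKM, and did not pass with the replicate block (log2 fold change 2.26, edgeR adjusted p = 0.0629). Of 9 ventricular chamber genes 7 are deposited and all 7 rose (2 with median-of-ratios factors). All 8 tested cardiomyocyte markers were also called higher (3 with median-of-ratios factors), and their part in the chamber values was not tested. Both deposited venous and lymphatic genes, Nrp2 and Emcn, rose (0 with median-of-ratios factors). All 6 deposited genes, of 19 listed, of the naive pluripotency network fell, among them Klf2 and Utf1. Of 26 steroid genes 3 are deposited: Hsd11b2, which inactivates glucocorticoids, rose by a log2 fold change of 2.09, and the glucocorticoid-induced genes Fkbp5 and Sgk1 fell by 1.12 and 1.83. Of 15 clock genes 4 are deposited; Per2 rose by 1.29, Ciart fell by 1.61, and Bhlhe41, at 0.475, 0.573 and 0.548 FPKM in NC and 1.08, 0.797 and 1.33 FPKM in MF, did not pass (edgeR adjusted p = 0.0671). The single deposited target of LXR and FXR, the desaturase Scd2, rose by 1.33. The single one of CAR and PXR, Cyp2b23, fell by 3.73. With median-of-ratios factors Hsd11b2, Per2 and Scd2 were not called, while Fkbp5, Sgk1, Ciart and Cyp2b23 were. Among further marker lists, 4 of 5 deposited endothelial markers rose and Pecam1 fell. Gata6 of extraembryonic endoderm rose with overlapping groups, and both deposited trophoblast markers rose. With median-of-ratios factors none of these markers was called higher. No marker of smooth muscle, blood, neural cells, or endoderm and hepatocytes is among the deposited genes.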
